A study of Mus musculus with 32 samples.

Results

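Of 56459 features in the deposited table, 152 were enriched in the Scnn population of the mouse cortex, and their levels in all 8 neuron populations of the study are described here. The 152 were chosen from the measured values. A feature had to reach at least 1 CPM (the count divided by the library's total count and multiplied by 1000000) in all 4 Scnn libraries, and its Scnn mean had to be at least 2 times the mean of each of the 7 other groups. The first condition alone was met by 13658 features, so the 152 were 1.11% of those that could qualify. Because these values chose the features, every level in Scnn against another group is given as a description with no test, and tests are made only in comparisons that leave Scnn out.

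The study sequenced RNA associated with ribosomes from neuron populations of the mouse forebrain, in 32 libraries that fall into 8 groups of 4. The groups are Scnn cortex (titles numbered 1 to 4), CamK cortex, PV cortex and SST cortex (plainly numbered as well), VIP cortex (numbered 1 to 4 after a W), and CamK, Grik and SST hippocampus (also after a W). All libraries carry the genotype label WT, and no treatment, age or time is given in the labels. Whether a library came from 1 animal or from pooled animals is not given in the sources used here, so the spread between libraries may in part be technical. The labels name no driver or tag. From knowledge of the field, Scnn stands for neurons marked by the promoter of the sodium channel gene Scnn1a, CamK for those of Camk2a and Grik for those of Grik4, while the PV, SST and VIP groups are interneurons that express the calcium-binding protein parvalbumin or the peptides somatostatin or VIP.

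As background, layer 4 of the sensory cortex is the main target of axons from the thalamus, and its excitatory cells are known to pass that input on to the layers above. Mice with a Scnn1a promoter transgene are widely used to reach these cells, although such lines also mark some cells of other layers. CamK lines mark excitatory neurons of most layers, so that layer 4 cells can be among those of the CamK cortex libraries. In ribosome capture, a library holds the transcripts on ribosomes of the marked cells together with some RNA carried over from neighbouring cells. A lower value can stand for fewer cells that hold a transcript or for less of it per cell, and these cannot be told apart.

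Each feature is named only by an identifier that begins with GSMG. Of the 152 identifiers 0, and of all 56459 also 0, matched the reference tables of gene identifiers and symbols, so gene names, functions, positions and sequences are not given. For the same reason no marker gene could be looked up to check the Scnn label, and features are described by the populations that held them.

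Scnn libraries held between 105524011 and 109578502 counts, within the range of the other groups (100158438 to 114153919, apart from SST hippocampus replicate 1 at 186505391). A pair of very abundant features, GSMG0038934 and GSMG0023431, took 4.57%, 13%, 2.56% and 6.78% of the counts in Scnn replicates 1 to 4. Neither belongs to the 152, since their Scnn means were 1.44 and 1.16 times their VIP cortex means. Their share lowers the CPM of all other features in a library, and most in replicate 2. Without the pair in the totals the same rule gave 175 features, which included all 152.

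The enriched features together made up a small part of the ribosome-associated RNA of Scnn neurons. Their joint share of counts was 0.897% ± 0.0938 in Scnn cortex, against 0.269% ± 0.0112 in CamK cortex, 0.202% ± 0.0258 in VIP cortex, 0.173% ± 0.0258 in SST cortex, 0.163% ± 0.0233 in PV cortex, 0.161% ± 0.0291 in SST hippocampus, 0.156% ± 0.00232 in CamK hippocampus and 0.119% ± 0.00103 in Grik hippocampus (SD, n = 4 each). The 4 Scnn libraries ranged from 0.821% to 1.03%, and the highest of the others, CamK cortex replicate 4, stood at 0.281%. One feature, GSMG0033283, supplied 20.1% of the summed CPM in Scnn, and the 10 most abundant supplied 53.3%. Without GSMG0033283 the sums were 7168 ± 714 CPM in Scnn, 2479 ± 89.4 in CamK cortex, 1464 ± 29.4 in CamK hippocampus and 1390 ± 114 in VIP cortex, so that VIP cortex then lay below CamK hippocampus.

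**Figure D1:**
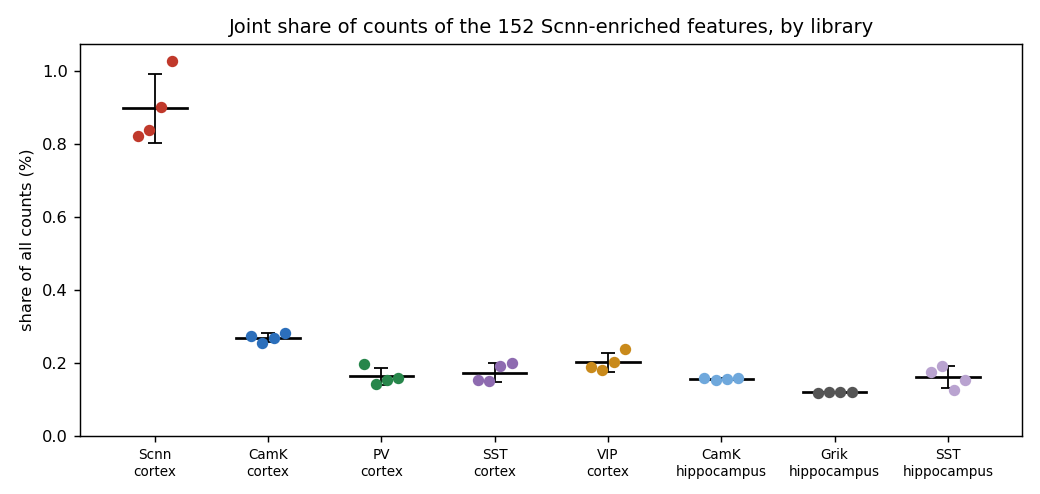
Joint share of all counts (%, vertical axis) of the 152 Scnn-enriched features in each of the 32 libraries, by group. Points are libraries, the line is the group mean and the bar its SD (n = 4). Scnn libraries lie between 0.821% and 1.03%, and CamK cortex, at a mean of 0.269%, is the next group.

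The enriched features covered a wide range of abundance. Their Scnn means ran from 1.26 to 1798 CPM with a median of 13.6 CPM, where all 13658 features with 1 CPM in each Scnn library had a median of 19.9 CPM. Of the 152, 45 stood below 5 CPM and 21 at 100 CPM or more. Per kilobase of the deposited feature length, which is taken to be in bases, the median Scnn level was 8.33 CPM per kilobase for the 152 and 13.9 for the 13658. The deposited length had a median of 1812.5 for the enriched features (range 517 to 12561) and of 1468 for the 13658 (range 19 to 97011). Thus the enriched features were by their medians longer and less abundant per length than the features they were drawn from, and none was shorter than 517.

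Enrichment was graded rather than absolute for most of them. The ratio of the Scnn mean to the highest mean of another group had a median of 2.76, with quartiles of 2.24 and 3.74. It was at least 3 for 67 features, at least 4 for 35, at least 8 for 9 and at least 16 for 2. The median ratio was 3.08 for the 45 features below 5 CPM and 2.54 for the 21 at 100 CPM or more. In 29 features every other group stayed under a mean of 1 CPM, in 17 a single other group reached it, and in 41 all 7 did. The 4 Scnn libraries lay above all 28 other libraries for 141 of the 152, and the same held for 431 of the 13658 (3.16%). That the rule asks for a high Scnn mean makes this count a description only.

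**Figure D2:**
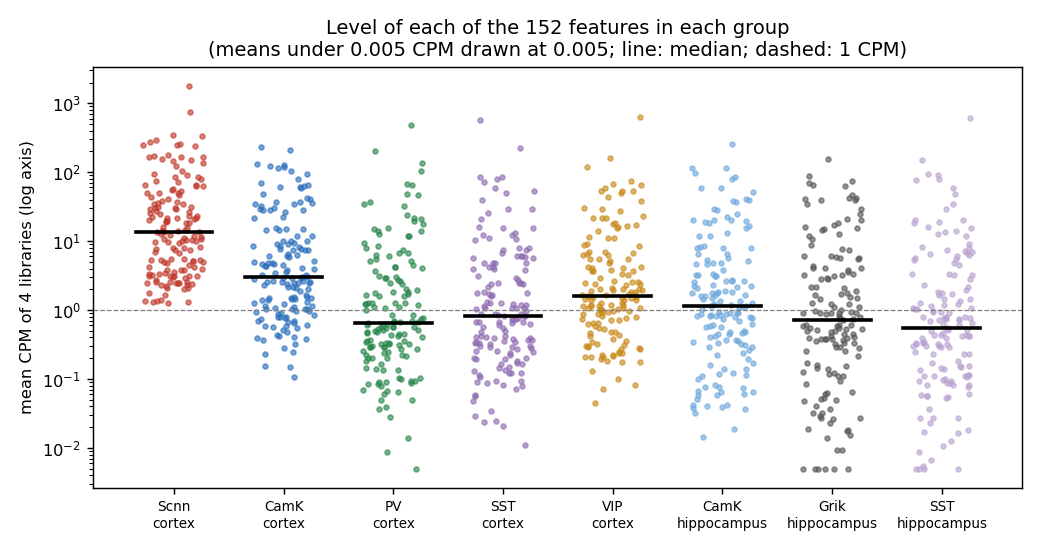
Mean CPM over 4 libraries (vertical log axis) of each of the 152 features in each group, with means under 0.005 CPM drawn at 0.005. The black line is the median over features, 13.6 CPM in Scnn cortex, 3.01 CPM in CamK cortex and 0.549 CPM in SST hippocampus, and the dashed line marks 1 CPM.

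The strongest enrichment was that of GSMG0037152. It stood at 19.2, 14.2, 18.6 and 12.9 CPM in Scnn replicates 1 to 4, against 0.413, 0.524, 0.532 and 0.792 CPM in CamK cortex. All Scnn libraries were thus far above those of CamK cortex, its next group, by a ratio of means of 28.7. In VIP cortex it ranged from 0 to 0.300 CPM and in CamK hippocampus from 0.0937 to 0.286 CPM. No count was seen in the 4 Grik hippocampus libraries, where 3 counts over the group would be 0.00687 CPM, so Scnn was at least 2358-fold higher, counting error only. Outside Scnn no library reached 1 CPM of this feature.

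GSMG0008329 followed at a ratio of 22.6 and was more abundant. Its Scnn libraries held 49.6, 34.3, 52.6 and 49.5 CPM, and replicate 2 was the low one. VIP cortex, at 2.18, 1.73, 2.36 and 1.96 CPM, and CamK cortex, at 2.04, 1.94, 1.78 and 1.79 CPM, overlapped each other as the next groups. The remaining groups had means below 1 CPM, down to 0.172 CPM in Grik hippocampus.

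The most abundant enriched feature behaved in another way. GSMG0033283 stood at 1009.8, 2180.2, 1104 and 2897 CPM in Scnn replicates 1 to 4, a coefficient of variation (CV, the SD as a share of the mean) of 50.4%. In VIP cortex it stood at 568, 438, 451 and 1047 CPM, so that VIP replicate 4 lay above Scnn replicate 1 and the groups overlapped. Its level per length, 1383 CPM per kilobase, was the highest of the 152. It was also widespread, with means of 617 CPM in SST hippocampus, 575 in SST cortex, 482 in PV cortex and 210.1 in CamK cortex. The Scnn libraries high in GSMG0033283, replicates 2 and 4, were also those with the largest share of the abundant pair named above, and VIP replicate 4 had the largest share within VIP cortex, at 6.73%. Scnn replicate 2 had a larger share of the pair than replicate 4 (13% against 6.78%) but less of GSMG0033283. In VIP cortex, CamK cortex, CamK hippocampus and Grik hippocampus the libraries had the same order in GSMG0033283 as in the share of the pair. In SST cortex replicates 3 and 4, at 761 and 809 CPM, held 2.27% and 2.05%. Replicates 1 and 2 there, at 373 and 355 CPM, held 0.533% and 0.592%. In SST hippocampus replicates 1 and 2 were the highest in both and replicate 3 the lowest. PV cortex did not follow this order. There GSMG0033283 was highest in replicate 1, at 758 CPM with a pair share of 1.01%. PV replicates 2 and 4 held 361 and 427 CPM with shares of 1.90% and 1.88%, and PV replicate 3 held 382 CPM with 0.958%. The part of the pair in this result was not tested.

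GSMG0018815, the second in abundance, stood at 924, 632, 838 and 578 CPM in Scnn replicates 1 to 4, here with replicates 1 and 3 high. CamK hippocampus was its next group, at 253, 233, 278 and 275 CPM in replicates 2 to 5, closely followed by CamK cortex at a mean of 232 ± 18 CPM, and neither overlapped with Scnn. Grik hippocampus had the lowest level, 62.5 ± 7.54 CPM (SD, n = 4). A feature of this kind was present in all populations and 2.86 times as high in Scnn as in the next.

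**Figure D3:**
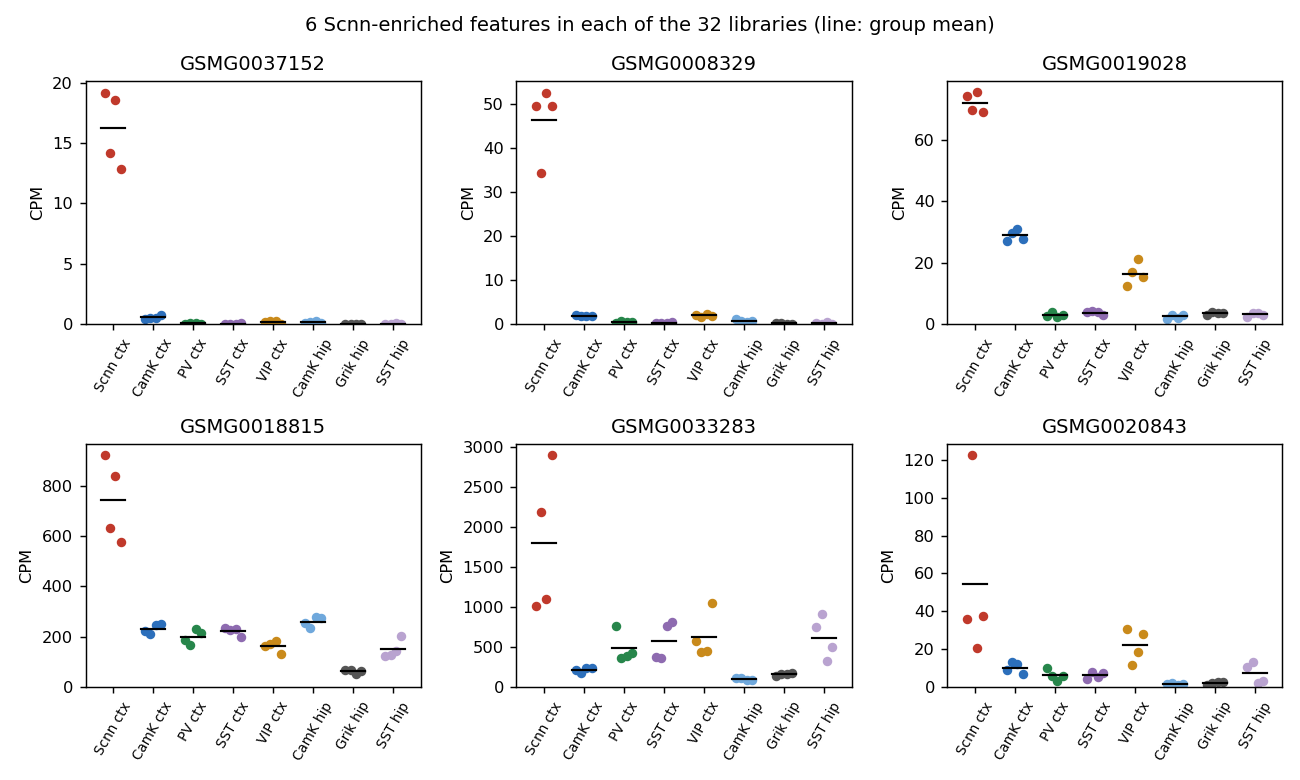
CPM (vertical axes, starting at 0) of 6 Scnn-enriched features in all 32 libraries, with points for libraries and lines for group means. GSMG0037152 and GSMG0008329 are near 0 outside Scnn, GSMG0019028 and GSMG0018815 are graded, and the 4 Scnn libraries of GSMG0033283 and GSMG0020843 are widely spread.

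At the threshold of the rule the choice was narrow. Just inside it lay GSMG0032770, whose Scnn level of 239 ± 24.6 CPM stood beside 119 ± 19.2 CPM in CamK cortex, and GSMG0023520, at 2.54 ± 0.421 CPM in Scnn and 1.27 ± 0.274 CPM in PV cortex, both with ratios of 2.002. Just outside lay GSMG0040838, with 4.42 ± 1.26 CPM in Scnn beside 2.22 ± 0.202 CPM in CamK cortex, and GSMG0023627, with 39.1 ± 7.56 CPM in Scnn beside 19.7 ± 0.804 CPM in CamK cortex, with ratios of 1.99 each. The features on both sides of the threshold hardly differed, and 315 features reached 1.5 times.

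The Scnn libraries did not carry the enriched features evenly. Replicate 2 was the lowest of the 4 for 105 of the 152 (69.1%) and for 46.2% of the 13658, and replicate 3 was the highest for 73 (48.0%) and for 31.6%. The median level relative to the mean of the 4 libraries was 0.996, 0.825, 1.12 and 1.05 in replicates 1 to 4. With the abundant pair left out of the totals, replicate 2 was still the lowest for 75 (49.3%) of the 152, against 23.2% of the 13658. By the full column totals, replicates 3 and 4 were the highest 2 libraries for 74 features (48.7%, against 27.1% of the 13658). On the same totals replicates 2 and 4, the libraries high in the pair, were so for 8 (5.26%, against 10.2%). The library most often lowest was thus the one where the abundant pair was highest, for fewer features once the pair was left out of the totals. GSMG0033283 was lowest in replicate 1.

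The CV over the 4 Scnn libraries had a median of 18.9% for the enriched features and 12.3% for the 13658. It was over 50% for 7 of the 152 (4.61%, against 1.65% of the 13658). Its lower quartile was 14.3% for the 152 and 8.35% for the 13658. GSMG0020843 had the largest CV, 85.2%, with 35.9, 122, 20.6 and 37.7 CPM in replicates 1 to 4, and its Scnn replicate 3 lay below the highest VIP cortex library at 30.4 CPM. GSMG0017716 followed (61.4%), at 3.16, 11.6, 3.52 and 9.57 CPM, with replicates 2 and 4 high. Replicate 2 thus stood far above the other Scnn libraries for GSMG0020843. For both features replicates 2 and 4 were the highest, which were also the Scnn libraries with the largest share of the abundant pair. The part of the pair in this was not tested. At the other end, GSMG0019028 stood at 74.1, 69.7, 75.3 and 68.9 CPM (CV 4.42%), against 28.8 ± 1.80 CPM in CamK cortex and 16.4 ± 3.64 CPM in VIP cortex. GSMG0011147 stood at 27.6, 28.9, 28.5 and 25.9 CPM (CV 4.80%), against 8.52 ± 1.41 CPM in CamK cortex. Among features with a Scnn mean of at least 5 CPM, these were the most even.

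**Figure D4:**
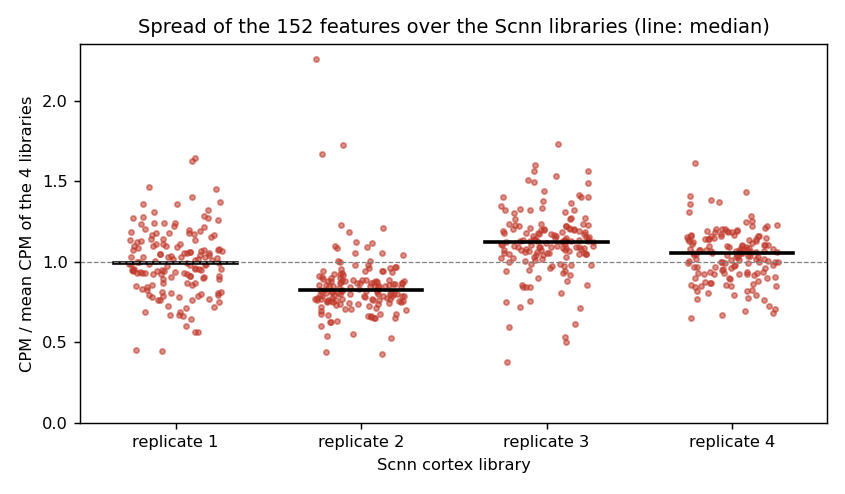
CPM in each Scnn cortex library divided by the mean of the 4 libraries (vertical axis) for each of the 152 features. The black line is the median, 0.825 in replicate 2 and 1.12 in replicate 3, and the points far above 1 in replicate 2 include GSMG0020843.

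Outside Scnn, the enriched features were most often highest in the other excitatory population of the cortex. CamK cortex was the next group for 103 of the 152 (67.8%), where it was the highest of the 7 other groups for 13.9% of the 13658. VIP cortex came next for 20 features (13.2%, against 24.1%), CamK hippocampus for 9 (5.92%, against 12.95%), PV cortex for 8 (5.26%, against 19.7%), Grik hippocampus for 5 (3.29%, against 11.1%), SST hippocampus for 4 (2.63%, against 10.4%) and SST cortex for 3 (1.97%, against 7.80%). The next group was a cortical one for 134 of the 152 and for 65.5% of the 13658. The rule puts 1 upper limit on all 7 groups and does not set their order, but it also takes in features in which these groups differ strongly.

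The median ratio of the Scnn mean to the group mean was 3.20 for CamK cortex, 6.78 for VIP cortex, 8.88 for CamK hippocampus, 12.6 for SST cortex, 15 for Grik hippocampus, 16.7 for PV cortex and 18.5 for SST hippocampus. A level of 1 CPM was reached on average by 117 of the 152 in CamK cortex, 99 in VIP cortex, 81 in CamK hippocampus, 70 in SST cortex, 67 in PV cortex, 63 in Grik hippocampus and 58 in SST hippocampus. The lowest of the 7 groups was SST hippocampus for 46 features, Grik hippocampus for 43, PV cortex for 27 and never CamK cortex (0). Thus CamK cortex and VIP cortex came nearest to Scnn. SST hippocampus had the lowest median level, 0.549 CPM, followed by PV cortex at 0.659 CPM and Grik hippocampus at 0.726 CPM, while Grik hippocampus was more often the lowest group than PV cortex. Only 5 of them were without any count in all 4 libraries of some group, 2 in Grik hippocampus, 2 in SST hippocampus and 1 in PV cortex.

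The median profile of the 152 over the 8 groups, on the scale of log2(CPM + 1), was 3.86 in Scnn cortex, against 2.01 in CamK cortex, 1.39 in VIP cortex, 1.10 in CamK hippocampus, 0.87 in SST cortex, 0.79 in Grik hippocampus, 0.73 in PV cortex and 0.63 in SST hippocampus. The features most like it were GSMG0003914 (Pearson correlation 0.994 over the 8 group means) and GSMG0016229 (0.994), both among the 152. GSMG0016229 stood at 25.1, 15.6, 19.0 and 14.3 CPM in Scnn replicates 1 to 4, against 3.20 ± 0.367 CPM in CamK cortex, and had no count in Grik hippocampus. Of the features outside the 152, GSMG0003320 (0.976) and GSMG0028434 (0.974) were closest, and their ratios were 1.73 and 1.74. Least like it was GSMG0033283, at 0.517. These correlations are given as a description, since the Scnn value alone sets most of them.

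To describe how these features behave in contrasts that the rule did not use directly, the 7 other groups were compared with each other. The rule did limit the mean of each of these groups, since the Scnn mean had to be at least 2 times as high. edgeR's quasi-likelihood test was fitted to their 28 libraries, without Scnn, with Benjamini-Hochberg adjustment over all 24085 features tested. Calls needed both an adjusted p below 0.05 and a 2-fold or larger change. All 152 passed the filter on low counts, which was set on these 28 libraries. Their counts are read against the share of all features called in the same direction. Features outside the 152 were not held to the limit of the rule, and its part in these shares was not tested.

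In the cortex most of these features were lower on average over the interneuron populations than in CamK neurons. Their joint share of counts was 0.202% in VIP, 0.173% in SST and 0.163% in PV cortex, against 0.269% in CamK cortex. Of the 152, 116 (76.3%) were called, against 31.1% of all features. In detail, 112 (73.7%) were lower on average over the PV, SST and VIP groups of the cortex than in CamK cortex, where 13.1% of all features were called lower. The average is taken on the log2 scale, so a feature can be called lower although 1 interneuron group exceeds CamK cortex. GSMG0027056 was such a case (-1.56), with means of 11.2 CPM in VIP and 3.22 CPM in CamK cortex. By group means, as a description, CamK cortex was at least 2-fold above every cortical interneuron group for 65 of the 152. Some interneuron group was at least 2-fold above CamK cortex for 12. Only 4 (2.63%) were higher, where 18% of all features were called higher. The median log2 fold change was -1.81 for the 152 and 0.05 for all features tested. Among populations with plainly numbered titles, PV and SST against CamK cortex, 113 were called, against 29.7% of all features, with 110 lower and 3 higher, where 14.5% of all features were lower and 15.2% higher, and the median was -2.18.

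GSMG0025138 had the largest fall in this comparison. It stood at 0 to 0.0206 CPM in PV cortex, 0 to 0.0851 CPM in SST cortex and 0.116 to 0.534 CPM in VIP cortex, against 1.25, 1.27, 0.622 and 0.936 CPM in CamK cortex (log2 fold change -4.51, SE 0.72, edgeR adjusted p = 3.17e-06). All 12 interneuron libraries lay below the 4 of CamK cortex. GSMG0052031 averaged 0.141 ± 0.0948 CPM over the 12 interneuron libraries and 2.57 ± 0.290 CPM in CamK cortex (-4.48, SE 0.40, adjusted p = 6.49e-11, again without overlap). Its Scnn mean was 13.7 CPM, so that this transcript was found in the excitatory cortical populations and hardly in interneurons.

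Of the 4 features that were higher in interneurons, GSMG0033283 alone did so without overlap between the libraries. It stood at 438 to 1047 CPM in VIP cortex, 355 to 809 CPM in SST cortex and 361 to 758 CPM in PV cortex, against 206, 173, 230 and 231 CPM in CamK cortex (log2 fold change 1.22, SE 0.30, edgeR adjusted p = 0.00133). All 12 interneuron libraries lay above the 4 of CamK cortex. The most abundant of the enriched features therefore went against the direction of most of the others.

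VIP neurons held more of these transcripts than the other cortical interneurons. Of the 152, 72 (47.4%) were called, against 28.3% of all features. In detail, 62 (40.8%) were higher in VIP cortex than in the mean of PV and SST cortex, where 21.6% of all features were called higher, and 10 (6.58%) were lower, where 6.66% were. The median log2 fold change was 0.77 for the 152 and 0.11 for all features, and the median of all features became 0.21 with DESeq2 size factors, under which 64 of the 152 were higher and 8 lower. VIP titles carry a W and PV and SST cortex titles do not, so this population cannot be told apart from its title series. VIP libraries also had more features at 1 CPM or more, 15406 to 16044, than PV and SST cortex, 13761 to 14218, and the part of this in the result was not tested.

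GSMG0027056 showed it most clearly, at 11.2, 11.8, 10.1 and 11.5 CPM in VIP cortex, against 0.282, 0.305, 0.235 and 0.334 CPM in PV cortex and 0.332, 0.805, 0.748 and 0.539 CPM in SST cortex (log2 fold change 4.46, SE 0.27, edgeR adjusted p = 2.79e-14). Scnn cortex held 30, 22, 34.5 and 31.7 CPM and CamK cortex 2.41 to 4.68 CPM, so that VIP cortex lay between the 2 excitatory populations. GSMG0016631 averaged 4.86 ± 0.168 CPM in VIP cortex and 0.616 ± 0.192 CPM over PV and SST cortex (2.71, SE 0.16, adjusted p = 8.96e-15). In the other direction GSMG0015614 stood at 48.5, 55.6, 61.1 and 47.0 CPM in VIP cortex, against 131 to 137 CPM in PV cortex and 76.1 to 83.3 CPM in SST cortex (-1.25, SE 0.07, adjusted p = 4.13e-15). PV cortex was the next group after Scnn for this feature, at a ratio of 2.04. GSMG0009000 (-1.13, SE 0.13, adjusted p = 1.85e-08) was lower in VIP cortex by little more than the fold threshold, and without SST cortex replicate 4 or VIP replicate 2 its log2 fold change of -0.99 or -0.94 no longer reached it.

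**Figure D5:**
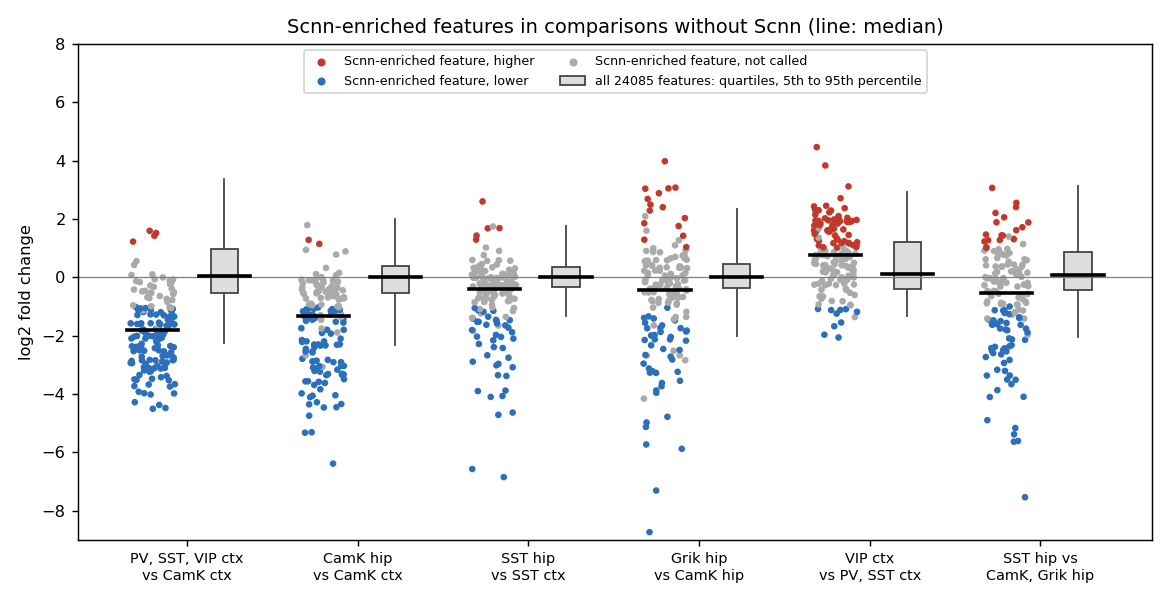
Log2 fold changes (vertical axis) of the 152 Scnn-enriched features in 6 comparisons among the 7 other groups, red where called higher, blue where called lower and grey where not called. The boxes beside them are the quartiles of all 24085 features tested with lines to the 5th and 95th percentiles, and black lines are medians. The medians of the 152 run from -1.81 in interneurons against CamK cortex to 0.77 in VIP against PV and SST cortex.

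Within CamK neurons the enriched features were lower in the hippocampus. Of the 152, 86 (56.6%) were called, against 14.1% of all features. In detail, 84 (55.3%) were lower in CamK hippocampus than in CamK cortex, where 8.57% of all features were called lower, and 2 (1.32%) were higher, where 5.56% were. The median log2 fold change was -1.33, against -0.01 for all features, and 33 of the 84 were at least 8-fold lower. GSMG0041057 had 6 counts in the 4 CamK hippocampus libraries together, all in replicate 3 (0.0569 CPM), against 1.04, 1.54, 1.2 and 1.06 CPM in CamK cortex (-6.39, SE 0.89, edgeR adjusted p = 1.07e-06). Without replicate 3 CamK hippocampus had no count of it, and the fitted value of -10.17 is then no bound. GSMG0042852 averaged 0.0749 ± 0.0674 CPM in CamK hippocampus and 2.92 ± 0.627 CPM in CamK cortex (-5.33, SE 0.83, adjusted p = 1.35e-05). Both were thus cortical transcripts within the CamK population.

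The 2 exceptions were GSMG0032489 and GSMG0025586. GSMG0032489 stood at 7.65, 7.06, 4.66 and 6.98 CPM in CamK hippocampus, against 2.05, 2.60, 3.11 and 2.64 CPM in CamK cortex (log2 fold change 1.28, SE 0.25, edgeR adjusted p = 0.000137). In Scnn it stood at 41.3, 38.2, 59.0 and 59.7 CPM, and Grik hippocampus held 3.78 to 4.25 CPM, above all libraries of CamK cortex. GSMG0025586 averaged 7.84 ± 1.86 CPM in CamK hippocampus and 3.40 ± 0.670 CPM in CamK cortex (1.15, SE 0.29, adjusted p = 0.0021). For both, the excitatory populations of the hippocampus came next after Scnn. CamK hippocampus titles carry a W and CamK cortex titles do not, so that the region cannot be told apart from the way titles are numbered, here and for SST neurons.

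In SST neurons the same direction prevailed with fewer calls. Of the 152, 46 (30.3%) were called, against 7.63% of all features. In detail, 41 (27.0%) were lower in SST hippocampus than in SST cortex, where 3.64% of all features were called lower, and 5 (3.29%) were higher, where 3.99% were. The median log2 fold change was -0.40, against 0.00485 for all features. GSMG0025968, the third in Scnn abundance, stood at 5.80, 1.58, 5.43 and 20.4 CPM in SST hippocampus, against 76.8, 83.5, 70.1 and 107 CPM in SST cortex (-3.36, SE 0.54, edgeR adjusted p = 8.59e-05). SST hippocampus replicate 5 was the high one and still lay below all of SST cortex. GSMG0025449, for which SST cortex was the next group after Scnn, averaged 0.335 ± 0.0744 CPM in SST hippocampus and 2.70 ± 0.271 CPM in SST cortex (-3.02, SE 0.33, adjusted p = 6.09e-08). Higher in SST hippocampus were GSMG0025586 (1.68, SE 0.31, adjusted p = 0.000189) and GSMG0024995, at 18.1 ± 4.26 CPM in SST hippocampus and 5.60 ± 0.407 CPM in SST cortex (1.68, SE 0.18, adjusted p = 7.98e-08).

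The regional change was also compared between SST and CamK neurons. The test of the difference itself, the SST change minus the CamK change, called 56 of the 152 (36.8%), against 11.3% of all features. It put 45 (29.6%) above 0, where 6.65% of all features were, and 11 (7.24%) below 0, where 4.63% were. GSMG0016687 averaged 0.319 ± 0.0840 CPM in SST hippocampus and 0.245 ± 0.0520 CPM in SST cortex, while it averaged 0.0653 ± 0.0195 CPM in CamK hippocampus and 1.08 ± 0.162 CPM in CamK cortex (difference of log2 fold changes 4.43, SE 0.52, edgeR adjusted p = 1.69e-07). GSMG0014450 averaged 0.0879 ± 0.0625 CPM in SST hippocampus and 0.0949 ± 0.0480 CPM in SST cortex, while it averaged 0.0998 ± 0.0713 CPM in CamK hippocampus and 2.60 ± 0.469 CPM in CamK cortex (4.57, SE 1.02, adjusted p = 0.0012). In both, the regional change that was seen lay in CamK neurons. GSMG0014450 averaged below 0.1 CPM in SST neurons of both regions, so its SST values rest on few counts.

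In the opposite direction, GSMG0025449 fell in SST hippocampus as given above, while its CamK means were 1.68 ± 0.281 CPM in hippocampus and 1.53 ± 0.249 CPM in cortex (difference -3.09, SE 0.44, edgeR adjusted p = 4.41e-06). GSMG0014195 differed by -2.67 (SE 0.96, adjusted p = 0.0414), and this call was lost when any library of the comparison other than SST hippocampus replicates 2 and 5 was left out, with adjusted p up to 0.0837.

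Among the excitatory populations of the hippocampus, the enriched features called in Grik against CamK neurons were more often lower than higher. Of the 152, 59 (38.8%) were called, against 13.6% of all features. In detail, 44 (28.9%) were lower in Grik than in CamK hippocampus, where 6.46% of all features were called lower, and 15 (9.87%) were higher, close to the 7.1% of all features. The median log2 fold change was -0.42, against 0.01 for all features. GSMG0025089 had counts in replicates 4 and 5 of Grik hippocampus alone (0.0558 and 0.0543 CPM), against 2.31, 0.920, 1.85 and 2.02 CPM in CamK hippocampus (-5.88, SE 0.65, edgeR adjusted p = 2.54e-08). GSMG0014195 averaged 0.0183 ± 0.0263 CPM in Grik and 1.09 ± 0.168 CPM in CamK hippocampus (-5.73, SE 0.87, adjusted p = 4.65e-06).

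Higher in Grik was GSMG0026422, at 21.7, 18.8, 27.4 and 29.6 CPM in Grik hippocampus, against 4.49, 3.75, 1.13 and 3.21 CPM in CamK hippocampus (edgeR adjusted p = 4.73e-09 for a log2 fold change of 3.05, SE 0.29). Its Scnn libraries held 119, 101, 128 and 141 CPM and CamK cortex 26.0 to 32.7 CPM, so that Grik and CamK cortex overlapped. GSMG0021384 averaged 1.87 ± 0.257 CPM in Grik and 0.235 ± 0.122 CPM in CamK hippocampus (3.07, SE 0.35, adjusted p = 4.18e-08). Titles of both populations carry a W.

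SST interneurons of the hippocampus were compared with the mean of the 2 excitatory groups there, and more of the enriched features were lower than higher. Their joint share of counts was not lower, at 0.161% in SST hippocampus against 0.156% in CamK and 0.119% in Grik hippocampus. That rested on GSMG0033283. Without it the summed levels were 994 ± 50.1 CPM in SST, 1464 ± 29.4 CPM in CamK and 1035 ± 14.6 CPM in Grik hippocampus. Of the 152, 71 (46.7%) were called, against 27.2% of all features. In detail, 53 (34.9%) were lower in SST hippocampus than in the mean of CamK and Grik hippocampus, where 10.2% of all features were called lower, and 18 (11.8%) were higher, where 17% were. The median log2 fold change was -0.55, against 0.09 for all features. GSMG0021384 had counts in 2 of the 4 SST hippocampus libraries (0.0214 and 0.0294 CPM), against 1.54 to 2.08 CPM in Grik and 0.117 to 0.393 CPM in CamK hippocampus (-5.64, SE 0.46, edgeR adjusted p = 1.37e-11). GSMG0023291, for which Grik hippocampus was the next group after Scnn, averaged 0.0274 ± 0.0349 CPM in SST hippocampus and 1.26 ± 0.628 CPM over CamK and Grik (-5.61, SE 0.67, adjusted p = 2.61e-08).

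Higher in SST hippocampus were GSMG0033283, at 747, 905, 319 and 497 CPM in SST replicates 1, 2, 3 and 5, against 131 to 169 CPM in Grik and 86.4 to 113 CPM in CamK hippocampus (2.21, SE 0.28, edgeR adjusted p = 6.53e-07), and GSMG0017716, at 1.46 ± 1.04 CPM in SST and 0.233 ± 0.216 CPM over CamK and Grik (3.07, SE 0.49, adjusted p = 4.93e-06). GSMG0033283 was therefore above the excitatory populations other than Scnn in the interneurons of both regions. The share of the abundant pair was 1.34% to 3.46% in SST hippocampus and 0.0938% to 0.538% in CamK and Grik hippocampus, and its part in this result was not tested.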

How the data were processed

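RNA labelled as ribosome-associated was sequenced in 32 libraries of 8 groups. Libraries were made with a stranded TruSeq kit for polyadenylated RNA after RNeasy purification, per the labels' protocols. Per the submitters' processing notes, the tools include featureCounts, SAMtools, Picard and FastQC and the build is GRCm38. Aligner, annotation and strand setting: not given in the sources used here. Features that overlap, lie antisense or are nearly identical are therefore uncertain. The authors deposited expected counts per feature, named so from their fractional values, of which 20.1% of those above 0 were whole within 1e-06. Another 12 columns bear no name of a sample and were not used. The deposited length per feature was used for levels per length.

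Each library's column total scaled CPM. Groups come from titles and tissue labels. Replicate pairs differed by far more than counting noise (chi-square per feature 24.6 to 594). For tests, counts were rounded and fitted with edgeR 4.0.16 in R 4.3.3 (filterByExpr, TMM, robust quasi-likelihood, 1 coefficient per group) on the 28 libraries without Scnn, with 21 residual degrees of freedom and a common biological coefficient of variation of 0.237. SE is the log2 fold change over the square root of F. The procedure was tested on simulated data with changes planted only in CamK hippocampus and in features averaging above 1 CPM. Contrasts with averaged groups and the difference of regional changes were not examined there. The 152 features, the comparisons and the lists were chosen with earlier results of these data known. Features named in a comparison were the 2 with the largest positive and the 2 with the largest negative log2 fold change among called ones that averaged 1 CPM or more in some group on the higher side and whose 2 sides shared no range (a condition dropped for the difference of regional changes). Others were the 2 highest in Scnn mean or in ratio, the 2 with the largest and the 2 with the smallest CV (at a Scnn mean of 5 CPM or more), the 2 nearest the threshold on each side and the 2 most like the median profile. GSMG0038934, GSMG0023431 and the pair outside the 152 in likeness were named after their values were seen. Marker lists could not be looked up. Alternatives were DESeq2 1.42.0, other scalings, filters and thresholds, a replicate block and leaving out each library.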

Additional observations from a re-analysis of the deposited data

Results flagged for a closer look

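The following values stood apart. In 92 groups of 4 libraries examined for a lone high or low library, 11 were found. Chance flags about 1 in 20 groups of values not chosen beforehand, but these features were named partly for extreme values and chosen on their Scnn levels, so that rate does not apply and the values are a description only. In Scnn cortex these were GSMG0008329, low in replicate 2 at 34.3 CPM, GSMG0032770, low in replicate 2 at 203 CPM, and GSMG0020843, high in replicate 2 at 122 CPM. In PV cortex they were GSMG0033283, high in replicate 1 at 758 CPM, and GSMG0016631, high in replicate 4 at 0.963 CPM. In VIP cortex they were GSMG0025138, high in replicate 3 at 0.534 CPM, and GSMG0052031, low in replicate 4 at 0.0399 CPM. In CamK hippocampus they were GSMG0041057, high in replicate 3 at 0.0569 CPM, and GSMG0025449, low in replicate 4 at 1.26 CPM. In Grik hippocampus GSMG0033283 was low in replicate 3 at 131 CPM, and in SST cortex GSMG0014450 was low in replicate 1 at 0.0235 CPM.

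The regional change, hippocampus minus cortex, differed between SST and CamK neurons by the test of the difference for GSMG0014450 (log2 difference 4.57), GSMG0016687 (4.43), GSMG0025449 (-3.09) and GSMG0014195 (-2.67).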

How the results depend on the processing

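Of 8 other settings for the choice of features, 6 kept their number within 1.5 times of 152 (131 to 187). The number was 315 at 1.5 times and 67 at 3 times the next group. It was 153 with TMM scaling, of which 141 were shared, and 144 to 174 when each of 32 libraries was left out. In every comparison the number of the 152 that were called stayed within 1.5 times under each alternative. The number of all features called did not: with no fold threshold it was 8817 for CamK hippocampus against cortex, 5459 for SST hippocampus against cortex, 8212 for Grik against CamK hippocampus, 14374 for VIP against PV and SST cortex, 14786 for PV, SST and VIP against CamK cortex, 13212 for SST against CamK and Grik hippocampus and 5923 for the difference of regional changes. With 1 CPM in at least 4 libraries it was 4116 for VIP against PV and SST cortex and 4807 for PV, SST and VIP against CamK cortex. Of 467 values of named features under alternatives, 450 kept direction and call, 17 lost the call, for GSMG0014195 in the difference of regional changes (15, with an adjusted p of 0.056 with no filter) and GSMG0009000 in VIP cortex (2), and 0 reversed. Libraries with the same number in their titles deviated together weakly or not at all (correlations -0.0759 to 0.114, Scnn libraries not examined). The main fit therefore did not pair them by number. Whether equal numbers stand for a shared animal or batch cannot be told from these values. With a replicate block 118 of the 152 were called in interneurons against CamK cortex (116 without), and no call of a named feature changed. Values below about 0.1 CPM rest on few counts, and intervals and floors cover counting error only.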
